A study of Mus musculus with 17 samples.

Results

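Ribosomal proteins were followed from the mouse oocyte to the blastocyst on 17 Affymetrix MG-U74Av2 arrays. The probe sets were chosen by gene symbol alone: every non-control probe set whose single annotated symbol starts with Rpl or Rps and a digit, or is Rplp0 or Rpsa, for the cytosolic ribosome, and every one whose symbol starts with Mrpl or Mrps for the mitochondrial ribosome. The Rps6k kinases, which share the letters but not the function, were left out. This gave 96 of the 8251 genes that the array measures with a probe set of 1 symbol, 35 cytosolic and 61 mitochondrial. They were measured by 125 of the 12422 non-control probe sets, 49 cytosolic and 76 mitochondrial. A probe set is a group of short probes that together give 1 signal for a transcript. Of the 125, 98 passed the filter on dim signals (above 41.1 on at least 3 arrays) and were tested: 32 cytosolic (27 genes) and 66 mitochondrial (57 genes).

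The study sampled mouse oocytes (4 arrays), 1-cell embryos (3), 2-cell embryos (3), 8-cell embryos (4) and blastocysts (3), with no treatment named in the labels. The labels gave no strain, no maturation state of the oocytes and no age of the animals, and did not tell whether arrays of 1 stage hold RNA of different collections of embryos. The p-values therefore rest on the spread between arrays alone, and that spread may be only technical. In the labels the RNA of all 5 stages was amplified in the same way, in repeated rounds of in vitro transcription.

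Cytosolic ribosomes translate the mRNAs of the nuclear genome, and each is built in the nucleolus from ribosomal RNA and a large family of proteins that are needed in mostly equal numbers. Mitochondrial ribosomes are separate machines: their proteins are encoded in the nucleus, made in the cytosol and imported, and they translate only the few mRNAs of the mitochondrial genome, all for subunits of the respiratory chain. The oocyte stores both kinds of ribosome. In the mouse, most maternal mRNA is lost around the time the embryo's own genome is switched on, the main wave of which falls at the 2-cell stage.

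Many cytosolic ribosomal protein mRNAs start with a terminal oligopyrimidine tract (TOP), a C followed by a run of C and T, through which their translation is regulated. RefSeq promoters (GRCm38.p6, 250 bases before to 50 bases after the annotated start) matched 28 of the 35 cytosolic and 54 of the 61 mitochondrial genes. A TOP exactly at the annotated start (C and then at least 4 C or T, on the transcribed strand) was found in 5 cytosolic genes (17.9%), Rpl35a, Rpl38, Rps10, Rps18 and Rps27, and in 0 mitochondrial genes, against 2.67% of 17492 protein-coding genes. The annotated start can be off by a few bases, and a window of 20 bases on either side held a run of this kind in 75% of cytosolic, 61.1% of mitochondrial and 50.6% of all promoters. The longest pyrimidine run in that window had a median of 7 bases in the cytosolic genes and 5 bases in both other groups.

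Other motifs were shared by both sets. The letters CCGGAAG, a core bound by ETS family factors, stood on either strand in 12 cytosolic (42.9%) and 19 mitochondrial (35.2%) promoters, against 12.9% of all. AAGATGGC, the core bound by YY1, stood in 5 cytosolic (17.9%) and 10 mitochondrial (18.5%) promoters, against 3.57% of all, and never overlapped CCGGAAG in these genes. The core bound by NRF1, a palindrome, was found in 2 promoters of each set (7.14% and 3.7%, against 1.47%), and TATAAA in 4 and 5 (14.3% and 9.26%, against 14.8%). A match is a stretch of letters and not a measured binding site. The sequences of 8 members that differ in their course over the stages follow, 60 bases before the start and 20 from it, 5′ to 3′ on the gene's strand, to set TOP genes beside genes without one and early beside late genes. Capitals mark a TOP at the start, CCGGAAG or its reverse complement, or AAGATGGC.
Rps18 (chr17:33955646-33955725, minus strand): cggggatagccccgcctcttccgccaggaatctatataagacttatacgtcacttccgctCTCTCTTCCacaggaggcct
Rps10 (chr17:27635225-27635304, minus strand): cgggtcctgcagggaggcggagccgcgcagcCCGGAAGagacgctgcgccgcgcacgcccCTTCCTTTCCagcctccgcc
Rps27 (chr3:90213629-90213708, minus strand): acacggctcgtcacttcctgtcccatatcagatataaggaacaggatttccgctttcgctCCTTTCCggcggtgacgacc
Rps7 (chr12:28635934-28636013, minus strand): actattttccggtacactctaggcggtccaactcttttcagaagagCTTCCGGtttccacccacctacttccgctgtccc
Mrps22 (chr9:98601660-98601739, minus strand): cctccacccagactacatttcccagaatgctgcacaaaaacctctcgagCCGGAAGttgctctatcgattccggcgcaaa
Mrpl43 (chr19:45006423-45006502, minus strand): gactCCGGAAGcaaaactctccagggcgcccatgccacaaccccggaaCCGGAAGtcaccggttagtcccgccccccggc
Mrps12 (chr7:28741802-28741881, minus strand): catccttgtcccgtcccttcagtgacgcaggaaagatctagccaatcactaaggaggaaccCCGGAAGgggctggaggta
Mrps18a (chr17:46110944-46111023, plus strand): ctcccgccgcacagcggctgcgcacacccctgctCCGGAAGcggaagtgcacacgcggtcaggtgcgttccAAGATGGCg
Rps18 and Rps10 carry the tract at the start and Rps7 does not, and all 3 fell in 1-cell embryos and rose in both stages after. Rps27 carries it and was not called between consecutive stages. Mrps22 and Mrpl43 both hold CCGGAAG close to the start. Mrpl43 rose in 2-cell embryos by 3.18 on the log2 scale, and Mrps22 read -0.32 there and was not called (adjusted p = 0.156). Among the cytosolic probe sets tested, the median log2 change from oocyte to 1-cell was -2.08 for the 10 whose promoter holds CCGGAAG and -0.72 for the 17 whose promoter does not, and the middle 50% of each group, -3.09 to -1.58 and -2.96 to 0.05, overlap. For the mitochondrial probe sets these medians were -1.10 (23 probe sets) and -1.30 (37). From 2-cell to 8-cell the cytosolic medians were 1.93 with and 1.91 without CCGGAAG. Split by a TOP within 20 bases of the start, the medians from oocyte to 1-cell were -1.04 with (19 probe sets) and -1.76 without (8) in the cytosolic set, and -0.86 (36) and -1.45 (24) in the mitochondrial set, and here too the middle 50% of the groups overlap.

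The sets followed different courses, and the step at which they parted was the 2-cell stage. On the log2 scale, relative to the mean of the 5 stages, the median cytosolic probe set lay at -0.44 ± 0.10 (SD, n = 4 arrays) in the oocyte, -2.47 ± 0.25 (n = 3) in 1-cell embryos, -0.02 ± 0.28 (n = 3) in 2-cell embryos, 1.76 ± 0.34 (n = 4) in 8-cell embryos and 1.28 ± 0.27 (n = 3) in the blastocyst. The median mitochondrial probe set lay at 0.27 ± 0.12, -0.79 ± 0.11, -0.54 ± 0.20, 0.43 ± 0.09 and 0.57 ± 0.04. The cytosolic set was lowest in 1-cell embryos and had recovered to about its oocyte level by the 2-cell stage, while the mitochondrial set was low in both 1-cell and 2-cell embryos. The median over all 8067 probe sets tested stayed between -0.05 and 0.09. In embryos of several cells, fewer cells with a transcript and less of it per cell cannot be told apart. At every stage a signal is relative to the other RNA on its array.

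**Figure D1:**
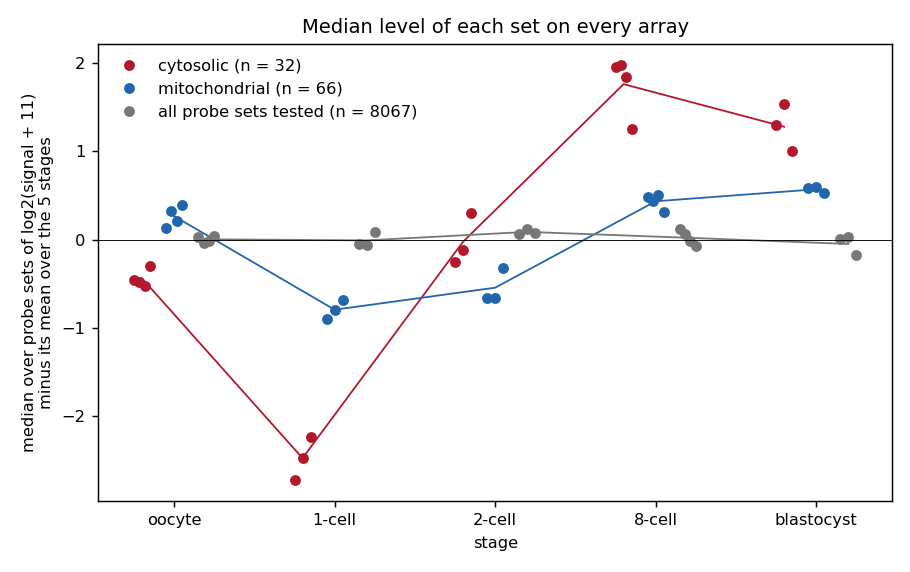
Median over the probe sets of a set of log2(signal + 11) minus its mean over the 5 stages (y axis), by stage (x axis). Each point is 1 array and lines join the means of the 4 oocyte, 3 1-cell, 3 2-cell, 4 8-cell and 3 blastocyst arrays. The cytosolic set (red) drops to -2.47 in 1-cell embryos and climbs to 1.76 in 8-cell embryos, the mitochondrial set (blue) stays between -0.79 and 0.57, and all probe sets tested (grey) stay near 0.

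From the oocyte to the 1-cell embryo most members of both sets fell. Of the 32 cytosolic probe sets 23 were lower and 1 higher, with a median log2 change of -1.71, and of the 66 mitochondrial ones 46 were lower and 2 higher, with a median of -1.13 (limma over the 17 arrays, Benjamini-Hochberg adjusted p below 0.05). Across all probe sets 37.1% were called in this comparison, 19.8% lower and 17.3% higher, with a median of 0.04. The fall passed 2-fold in 18 of the 32 cytosolic and 37 of the 66 mitochondrial probe sets, against 12.2% of all. The cytosolic median fell further than the mitochondrial one by 0.59. This order was not kept when arrays were scaled on the hybridisation spikes, a group of 9 control probe sets (a difference of 0.032). Nor was it kept when dim probe sets were included (0.64, now with the mitochondrial set falling further).

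Rpl7, a protein of the large subunit, had signals of 1731, 1534, 1605 and 2044 in the oocyte and 89.9, 128 and 114 in 1-cell embryos. The groups were far apart, and Rpl7 fell 14.3-fold (log2 -3.84 ± 0.19 SE, limma adjusted p = 4.07e-12). This probe set carries the suffix _s and shares probes with other transcripts, and the plain probe set of Rpl7 had stage means of 4.47 to 11.1, too dim to be tested. Rps3, a small-subunit protein at the entry of the mRNA channel, went from 622, 813, 763 and 776 to 49.1, 121 and 103. Its lowest 1-cell array was near the filter, and the fall was 2.96 ± 0.22 on the log2 scale (adjusted p = 7.38e-10). Both probe sets of Rpl10a, which lies at the stalk where spent tRNA leaves the ribosome, fell (log2 changes of -4.20 and -3.61). Rpl41, the smallest protein of the ribosome, measured by a probe set with the suffix _f for a gene family, fell 12.8-fold, from between 7100 and 8154 to between 377 and 878. Folds are ratios on the log2(signal + 11) scale, so they understate the change wherever a stage is near the floor, as the brighter probe set of Rpl10a is in 1-cell embryos (35.7 to 70.1).

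The fall was uneven within the cytosolic set. Rplp0, the base of the stalk that recruits elongation factors, went from 3039.8, 3296, 3239 and 3674 to 1399, 1724 and 1707, a fall of 1.04 ± 0.15 with no overlap of the arrays. Rps24 (-0.84, at a probe set with the suffix _r), Rps28 (-0.72 and -0.61), Rpl37a (-0.68) and Rpl39l (-0.62) also fell by less than Rps3a1 (-1.44), Rps10 (-1.99) or Rps18 (-3.50). Rpl13a went the other way. Its signals were 329, 322, 303 and 373 in the oocyte and 809, 781 and 763 in 1-cell embryos, a rise of 1.22 ± 0.17 (adjusted p = 5.38e-06) with no overlap. With spike scaling this rise was 0.13 and no longer called (adjusted p = 0.733). Arrays without overlap were common in this step: of all 8067 probe sets tested, 1866 lay wholly higher and 1848 wholly lower in 1-cell embryos.

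Among mitochondrial members the falls included those of Mrps22, Mrpl39 and Mrpl46. Mrps22, a small-subunit protein known from inherited mitochondrial disease, read 1036, 1489.9, 1123 and 1281 in the oocyte and 184, 149 and 181 in 1-cell embryos, a 6.78-fold fall (log2 -2.76 ± 0.17, adjusted p = 4.88e-11). Mrpl39, a large-subunit protein, fell by 2.64 ± 0.22, from between 416 and 548 to between 51 and 89.9. Mrpl46 fell by 2.52 ± 0.22, into signals of 2.9 to 9.9 that lie below the filter. Mrpl45, which ties the ribosome to the inner mitochondrial membrane, rose at 1 of its probe sets from 186, 213, 169 and 161 to 455, 471 and 345 (1.16 ± 0.16, adjusted p = 6.4e-06). The other, whose name carries the suffix _f, did not follow (-0.20 ± 0.17, adjusted p = 0.382), and with spike scaling the rise was 0.09 (adjusted p = 0.806). Mrpl44 rose by 0.61 ± 0.18 (adjusted p = 0.0117), with arrays that did not overlap. Its call was lost without oocyte array 3 (0.49, adjusted p = 0.0512), and with spike scaling its sign turned (-0.44, adjusted p = 0.236).

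The control probe sets moved in this comparison too. The 3 probe sets for 18S ribosomal RNA, the RNA of the small subunit, were higher in 1-cell embryos than in oocytes by 4.41 to 5.74 on the log2 scale and lower again in 2-cell embryos by 2.42 to 4.23. The mean of the 9 hybridisation spikes was higher by 1.12 and then lower by 0.23. The part of these shifts in the changes of the ribosomal protein probe sets was not tested. With the arrays scaled on the spikes, the median of all probe sets moved to -0.88 (30 higher and 4772 lower of 8393), and 31 of 36 cytosolic and 60 of 67 mitochondrial probe sets were lower and none higher, with medians of -2.05 and -2.09.

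From the 1-cell to the 2-cell embryo the cytosolic set rose almost throughout and the mitochondrial set split. Of the cytosolic probe sets 25 were higher and 2 lower, with a median of 2.18, and 24 of the 32 rose by more than 2-fold, against 18.8% of all probe sets. Of the mitochondrial probe sets 24 were higher, 16 lower and 26 not called, with a median of 0.07. Across all probe sets 47.2% were called, 26.0% higher and 21.2% lower, with a median of 0.06. The balance of the mitochondrial set turned with quantile normalization (20 higher and 22 lower) and median centring (18 and 24), but not with spike scaling (22 and 9). The balance over all probe sets moved in the same way, from 2096 higher and 1714 lower. Under these scalings it was 1825 and 2130, 1614 and 2434, and 1909 and 889. The cytosolic median exceeded the mitochondrial one by 2.11, and by 0.92 to 2.46 over the alternatives.

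Rpl7 went from 89.9, 128 and 114 in 1-cell to 2206, 2231 and 3566 in 2-cell embryos, a 21.6-fold rise (log2 4.44 ± 0.20, adjusted p = 1.14e-13). Rps3 rose by 4.37 ± 0.23, to 1562, 2030.5 and 2473. In both, array 2-cell 3 was the highest of its stage and every 2-cell array lay above every oocyte array. Rpl10a, at its brighter probe set, and Rpl41 rose by 4.44 and 4.39. Of the large-subunit probe sets 13 of 16 rose and of the small-subunit ones 12 of 16.

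The exceptions were Rpl13a and Rpl22, a large-subunit protein that also binds other RNAs. Rpl13a, the member that had risen in 1-cell embryos, fell to 675, 433 and 452 (-0.61 ± 0.18, adjusted p = 0.00726), a call lost with spike scaling (-0.39, adjusted p = 0.418). Rpl22 at 1 of its 2 probe sets read 64, 109.9 and 67.2 in 1-cell and 5, 10.6 and 7 in 2-cell embryos, a fall of 2.28 ± 0.31 to signals below the filter. Its other probe set read 64.3 to 83 and 45.6 to 86.4 and was not called in any consecutive comparison.

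In the mitochondrial set the rises included Mrpl43, Mrpl20 and Mrpl51, all of the large subunit. Mrpl43 went from 6.3, 36.5 and 27.9 to 219, 262 and 367 (3.18 ± 0.29, adjusted p = 7.33e-09), with the 1-cell arrays below the filter. Mrpl20 went from between 10.6 and 14.7 to 102, 142 and 263 (2.79 ± 0.27), and Mrpl51 from 144, 157 and 234 to 1045, 1031 and 1281 (2.60 ± 0.19). None of the 3 overlapped between the stages. Of all 8067 probe sets tested, 2351 lay wholly higher and 1998 wholly lower in 2-cell embryos. The order of Mrpl43, Mrpl20 and Mrpl51 follows from the offset, since the 1-cell arrays of Mrpl43 and Mrpl20 lie below the filter. With an offset of 41 the rises were 2.33, 1.88 and 2.42. The falls included Mrpl9, from 419.5, 477 and 308 to 102, 135 and 129 (-1.62 ± 0.22, adjusted p = 2.1e-06). Mrps36 fell by 1.58 ± 0.26 and Mrpl24 by 1.55 ± 0.21. Mrps36 carries a ribosomal name, but its product is known as a subunit of the oxoglutarate dehydrogenase complex.

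Over both steps, all 23 cytosolic probe sets that were lower in 1-cell embryos were higher in 2-cell embryos (71.9% of 32). Of the 46 mitochondrial probe sets that were lower in 1-cell embryos, 20 were higher in 2-cell embryos (30.3% of 66) and 26 were not (39.4%). Over all probe sets 10.1% were lower and then higher, and 9.68% lower and then not higher. All 23 cytosolic probe sets and 13 of the 20 mitochondrial ones rose again in 8-cell embryos, against 4.87% of all probe sets with these 3 calls. The 26 included 8 that fell a second time, at Mrpl24, Mrps18a, Mrps21, Mrps25 (both of its probe sets), Mrps31, Mrps33 and Mrps36, against 2.54% of all probe sets. Of these genes Mrpl24 alone belongs to the large subunit by its symbol. Mrps31 read 1058, 1172, 1129 and 1281 in the oocyte, 290.1, 326 and 449.8 in 1-cell embryos and 126, 118 and 166 in 2-cell embryos, 3 groups that did not overlap.

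Set directly against the oocyte, the 2-cell embryo had 16 cytosolic probe sets higher and 3 lower (median 0.42) and 8 mitochondrial ones higher and 40 lower (median -0.76). Across all probe sets 49.1% were called, 25.8% higher and 23.2% lower, with a median of 0.09. The cytosolic direction depended on the scaling: with spike scaling 2 were higher and 9 lower (median -0.48), beside 3 higher and 56 lower mitochondrial probe sets (median -1.57). Over all 8393 probe sets tested under that scaling, 776 were higher and 3879 lower (median -0.69). The cytosolic median stayed above the mitochondrial one under every alternative run, by 0.86 to 1.36 (1.18 in the values reported here). The cytosolic rises included Rps3a1 and Rpl7l1 (1.75 ± 0.15 and 1.51 ± 0.24). Mrps22 fell by 3.08 ± 0.17 and Mrps31 by 2.99 ± 0.16, while Mrpl20 (2.41 ± 0.25) and Mrpl43 (1.76 ± 0.27) were higher than in the oocyte.

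**Figure D2:**
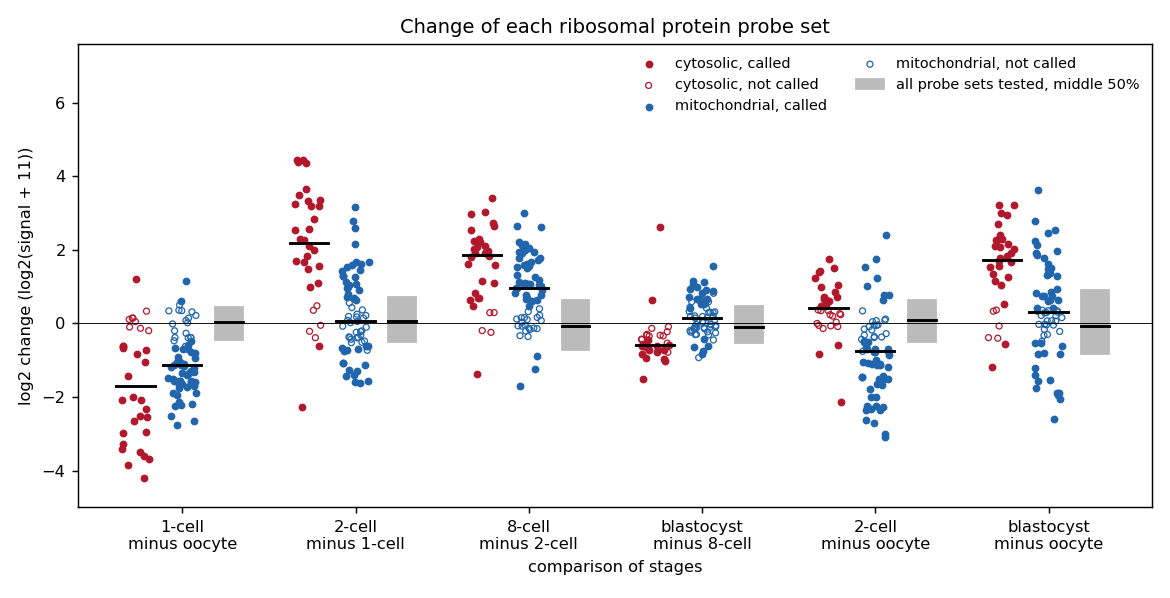
Log2 change of each tested probe set (y axis, on log2(signal + 11)) in the 6 comparisons of stages (x axis), for 32 cytosolic (red) and 66 mitochondrial (blue) probe sets. Filled points were called at an adjusted p below 0.05 and open points were not, black bars are medians and grey boxes span the middle 50% of all 8067 probe sets. From 1-cell to 2-cell the cytosolic median is 2.18 and the mitochondrial one 0.07. The direction of the mitochondrial set in that step turned with quantile normalization and median centring, and that of the cytosolic set in 2-cell minus oocyte and blastocyst minus 8-cell turned with spike scaling. In each of these cases the balance of calls over all probe sets leaned the same way as the turned set.

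From the 2-cell to the 8-cell embryo both sets rose. Of the cytosolic probe sets 26 were higher and 1 lower (median 1.87), and of the mitochondrial ones 43 were higher and 3 lower (median 0.97). Across all probe sets 54.1% were called, 25.8% higher and 28.3% lower, with a median of -0.06. With spike scaling the counts were 20 higher and 2 lower for the cytosolic and 22 and 7 for the mitochondrial set. Over all 8393 probe sets tested under that scaling they were 838 higher and 3300 lower (median -0.58). The median difference of 0.90 between the sets was -0.062 when dim probe sets were kept. The probe set pair for the 3′ and 5′ ends of Gapdh differed by 0.22 to 1.55 on the log2 scale in 8-cell arrays and by 1.93 to 3.03 elsewhere. The pair for beta-actin differed by 1.79 to 2.07 in 8-cell arrays, by no less than 1.62 in oocytes, 1-cell and 2-cell embryos, and by 0.95 to 1.24 in blastocysts. The part of RNA or amplification quality in the changes to and from these stages was not tested.

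Rps19, a small-subunit protein whose gene is mutated in Diamond-Blackfan anaemia, rose most, from 269, 232 and 599.7 to 1972, 5283, 3570.5 and 4952 (10.7-fold, log2 3.42 ± 0.34, adjusted p = 2.12e-08). Its 8-cell arrays spread more than those of most members, and its lowest, 8-cell 1, still lay above the highest 2-cell array. Rpl7a of the large subunit rose from 844, 874 and 1166 to 8984, 9728, 8029 and 5230.4 (3.02 ± 0.21). Rps18, whose promoter carries a TOP, rose from 847, 1012 and 2037 to 10362, 10961, 9839 and 7377 (2.97 ± 0.24). In Rpl7a and Rps18 array 8-cell 4 was the lowest of the stage, as it was for the brighter probe set of Rpl19, Rps10, Rpsa and both probe sets of Rps28, while Rps7 was highest there (6598, 6133, 6296 and 6857). Rps10 read 6226, 6621, 5724 and 2564 in these 4 arrays. The median of the whole cytosolic set was lowest on 8-cell 4 too, at 1.26 against 1.96, 1.98 and 1.85 on the other 8-cell arrays.

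Most of the late mitochondrial members rose here. Of the 26 mitochondrial probe sets that fell in 1-cell embryos and did not rise in 2-cell embryos, 19 rose in 8-cell embryos. That is 28.8% of 66, against 3.48% of all probe sets. Over all probe sets, 781 fell and then did not rise, and 281 of these rose in 8-cell embryos. No cytosolic probe set fell and then did not rise, so none could follow this course. The mean 8-cell signal of 10 of the 19 was still below that in the oocyte, as it was for all 7 that did not rise. Mrps18a, which carries a small-subunit symbol although its product lies in the large subunit, went at the probe set without a suffix letter from 13.4, 11.2 and 17.9 to 168, 155, 250.1 and 204 (3.01 ± 0.25, adjusted p = 1.59e-09). Mrps12, a protein of the decoding centre, read 13.2, 12.5 and 92.4 in 2-cell embryos, where 2-cell 3 stood well above the other arrays, and 202, 299, 239 and 184 in 8-cell embryos (2.61 ± 0.40). Mrpl36 rose from 22.6, 21.7 and 39.3 to 264, 266, 228 and 166 (2.64 ± 0.24). Mrps31 rose by 2.21 and Mrps21 by 2.05. Mrps22 rose by only 0.92 ± 0.17, to 297, 267, 229 and 267, which is far below its oocyte arrays.

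Mrpl48 and Mrps25 did not join. Mrpl48 fell at both of its probe sets, at the dimmer one from 807, 628 and 406 to 174, 155, 174 and 196 (-1.70 ± 0.21, adjusted p = 4.4e-07) and at the brighter one by 1.24 ± 0.16. Neither probe set was called in the 2 earlier consecutive steps. Mrps25 fell at its brighter probe set, with the suffix _f, by 0.88 ± 0.19, after falls in both earlier steps. Its other probe set read -0.36 ± 0.25 (adjusted p = 0.254). In the cytosolic set the 1 lower probe set was the dimmer one of Rpl19 (-1.38 ± 0.34), whose brighter partner rose by 1.81 ± 0.23.

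**Figure D3:**
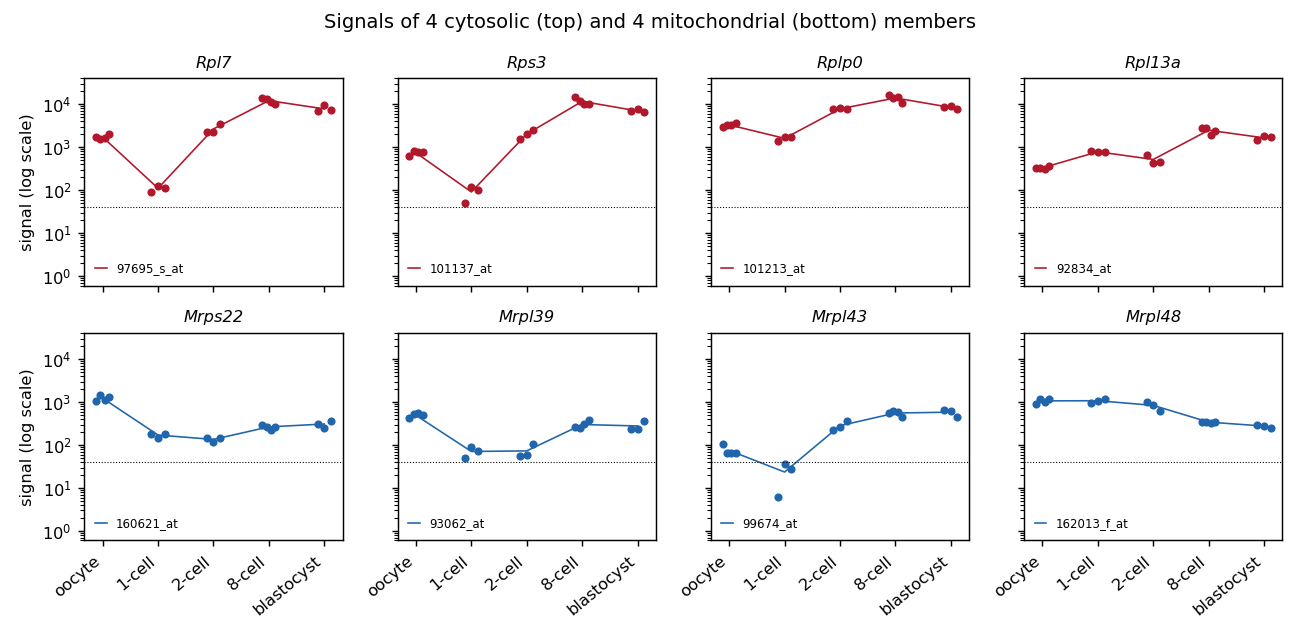
Signal on a log scale (y axis) by stage (x axis) for 4 cytosolic (top) and 4 mitochondrial (bottom) members, each at its brightest tested probe set. Points are single arrays, lines join stage means, and the dotted line is the filter at 41.1. Rpl7 and Rps3 dip in 1-cell embryos and recover by the 2-cell stage, Mrps22 falls and stays low, Mrpl43 rises in 2-cell embryos, and Mrpl48 falls in 8-cell embryos.

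From the 8-cell embryo to the blastocyst more cytosolic probe sets fell than rose, and most mitochondrial ones were not called. Relative to the mean of the 5 stages, the cytosolic medians of single arrays overlapped (1.26 to 1.98 in 8-cell embryos, 1.00 to 1.53 in blastocysts). The mitochondrial ones did not (0.31 to 0.50 and 0.53 to 0.60). Of the cytosolic probe sets 2 were higher and 17 lower (median -0.58), and of the mitochondrial ones 17 were higher, 5 lower and 44 not called (median 0.15). Across all probe sets 42.5% were called, 21.8% higher and 20.7% lower, with a median of -0.09. The direction of the cytosolic set held for median centring but turned with spike scaling, which gave 11 higher and 0 lower (median 0.59). Beside these stood 60 higher and 0 lower mitochondrial probe sets (median 1.23). Over all 8393 probe sets tested under that scaling, 4720 were higher and 189 lower, with a median of 0.87. Quantile normalization left 2 higher and 5 lower cytosolic probe sets (median -0.12), and 14 higher and 7 lower mitochondrial ones. The cytosolic median stayed below the mitochondrial one under every alternative, by 0.74 in the values reported here, with a range of differences from -0.79 to -0.20.

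Of the 32 cytosolic probe sets 2 fell by more than 2-fold, against 9.22% of all probe sets. Rplp0 went from 16866, 14127, 14493 and 10703 to 8728, 9033 and 7564 (-0.72 ± 0.15, adjusted p = 0.000675), and Rps24 from 25663, 22302, 17252 and 15717 to 10700.4, 10804 and 9186 (-0.96 ± 0.18). Rpl7l1, an assembly factor related to Rpl7 rather than a part of the finished ribosome, went from between 384 and 446 to between 175 and 217 (-1.03 ± 0.24). None of the 3 overlapped between the stages, and with spike scaling Rps24 and Rpl7l1 turned to 0.21 and 0.10, neither called. Of all 8067 probe sets tested, 1791 lay wholly higher and 1714 wholly lower in blastocysts. Rps13 also fell (-1.51 ± 0.43, adjusted p = 0.00764) at dim signals of 174, 78.7, 71.3 and 75.1 against 22.1, 49.8 and 13.3. Its call was lost without blastocyst array 3 (-1.21, adjusted p = 0.0569) and with spike scaling (-0.57, adjusted p = 0.193).

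The 2 cytosolic rises were at Rpl22 and Rps4l. Rpl22, at the probe set that had fallen in 2-cell embryos, went from 34.5, 18.1, 20.5 and 6.8 to 136, 198 and 180.5, a rise of 2.62 ± 0.29 (adjusted p = 2.46e-07) to above its oocyte arrays (47.7 to 86.3). Rps4l, a paralog of Rps4x, went at its brighter probe set, with the suffix _s, from 1104, 930.2, 1019 and 887 to 1561, 1808 and 1312 (0.65 ± 0.20, adjusted p = 0.0119), a call lost without blastocyst array 2 (0.54, adjusted p = 0.0675). Rps4x itself fell by 0.62 ± 0.17 in the same step, so the paralogs were called in opposite directions, except with spike scaling, under which no cytosolic probe set was lower. The difference between them was not tested, and a probe set with the suffix _s shares probes with other transcripts.

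The mitochondrial rises included Mrps25, Mrps36 and Mrpl23. The brighter probe set of Mrps25, with the suffix _f, went from 249, 257, 284 and 233 to 740.1, 672 and 933 (1.56 ± 0.19, adjusted p = 9.83e-07). It stayed below every oocyte array, and the other probe set of Mrps25 was not called in this step. Mrps36 rose by 1.16 ± 0.24, and Mrpl23 from 292, 277, 442 and 254 to 683, 686 and 708 (1.14 ± 0.18). The falls of Mrpl20 (-0.82 ± 0.25), Mrps7 (-0.76 ± 0.17) and Mrps26 (-0.64 ± 0.20) turned to 0.30, 0.38 and 0.49 with spike scaling, none of them called. The call of Mrpl20 was also lost without blastocyst array 2 (-0.69, adjusted p = 0.0631).

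Over the whole span the cytosolic set ended above its start and the mitochondrial set was mixed. In blastocysts against oocytes 25 cytosolic probe sets were higher and 2 lower (median 1.73), and 28 mitochondrial ones higher and 16 lower (median 0.30). Across all probe sets 64.3% were called, 32.2% higher and 32.1% lower, with a median of -0.07. Spike scaling gave 24 higher and 3 lower cytosolic and 17 higher and 17 lower mitochondrial probe sets. Over all 8393 probe sets tested under that scaling, 1891 were higher and 3156 lower (median -0.42). Mrps34, a small-subunit protein that was above the filter on 7 arrays, rose from 10.6, 9.3, 15 and 9.2 in the oocyte, all below the filter, to 334, 240 and 215 in the blastocyst (3.62 ± 0.28). The size of that rise depends on the offset of 11 that is added to each signal: it was 4.46 with an offset of 1 and 2.53 with one of 41. Rps19 rose by 3.23 ± 0.34 and Rps3 by 3.22 ± 0.22. Mrpl48 at its dimmer probe set fell by 2.61 ± 0.21 and Mrps25 read -2.05 and -1.56 at its 2 probe sets.

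The stage of the highest mean signal was the 8-cell embryo for 27 of the 32 cytosolic probe sets (84.4%, against 20.8% of all probe sets). For the mitochondrial set it was the blastocyst for 28 of 66 (42.4%, against 21.1%) and the oocyte for 18 (27.3%, against 15.8%). It was the 8-cell embryo for 15 (22.7%), near the 20.8% of all. The lowest stage was the 1-cell embryo for 24 cytosolic probe sets (75%, against 24% of all probe sets). For the mitochondrial ones it was the 1-cell embryo for 33 (50%) or the 2-cell embryo for 20 (30.3%, against 11.8% of all). A rise in 8-cell embryos followed by a fall in blastocysts was called in 16 cytosolic (50%) and 3 mitochondrial (4.55%) probe sets, against 8.18% of all. A rise in 8-cell embryos and no fall after it was called in 10 and 40 (31.2% and 60.6%, against 17.6%). A second rise, in blastocysts, was called at Rps4l and at 8 mitochondrial probe sets, those of Mrpl13, Mrpl17, Mrpl23, Mrpl24, Mrpl36, Mrpl50, Mrps21 and Mrps34 (12.1% of 66, against 5.78% of all). Rps27, Mrpl3 and 1 probe set each of Rpl22 and Rps4l were called in no consecutive comparison, against 18.0% of all probe sets. Rps27 read 136 to 152 in the oocyte, 135 to 200 in 1-cell, 186 to 242 in 2-cell and 225 to 276 in 8-cell embryos and 143 to 214 in blastocysts, without the 1-cell dip of Rps18 and Rps10.

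**Figure D4:**
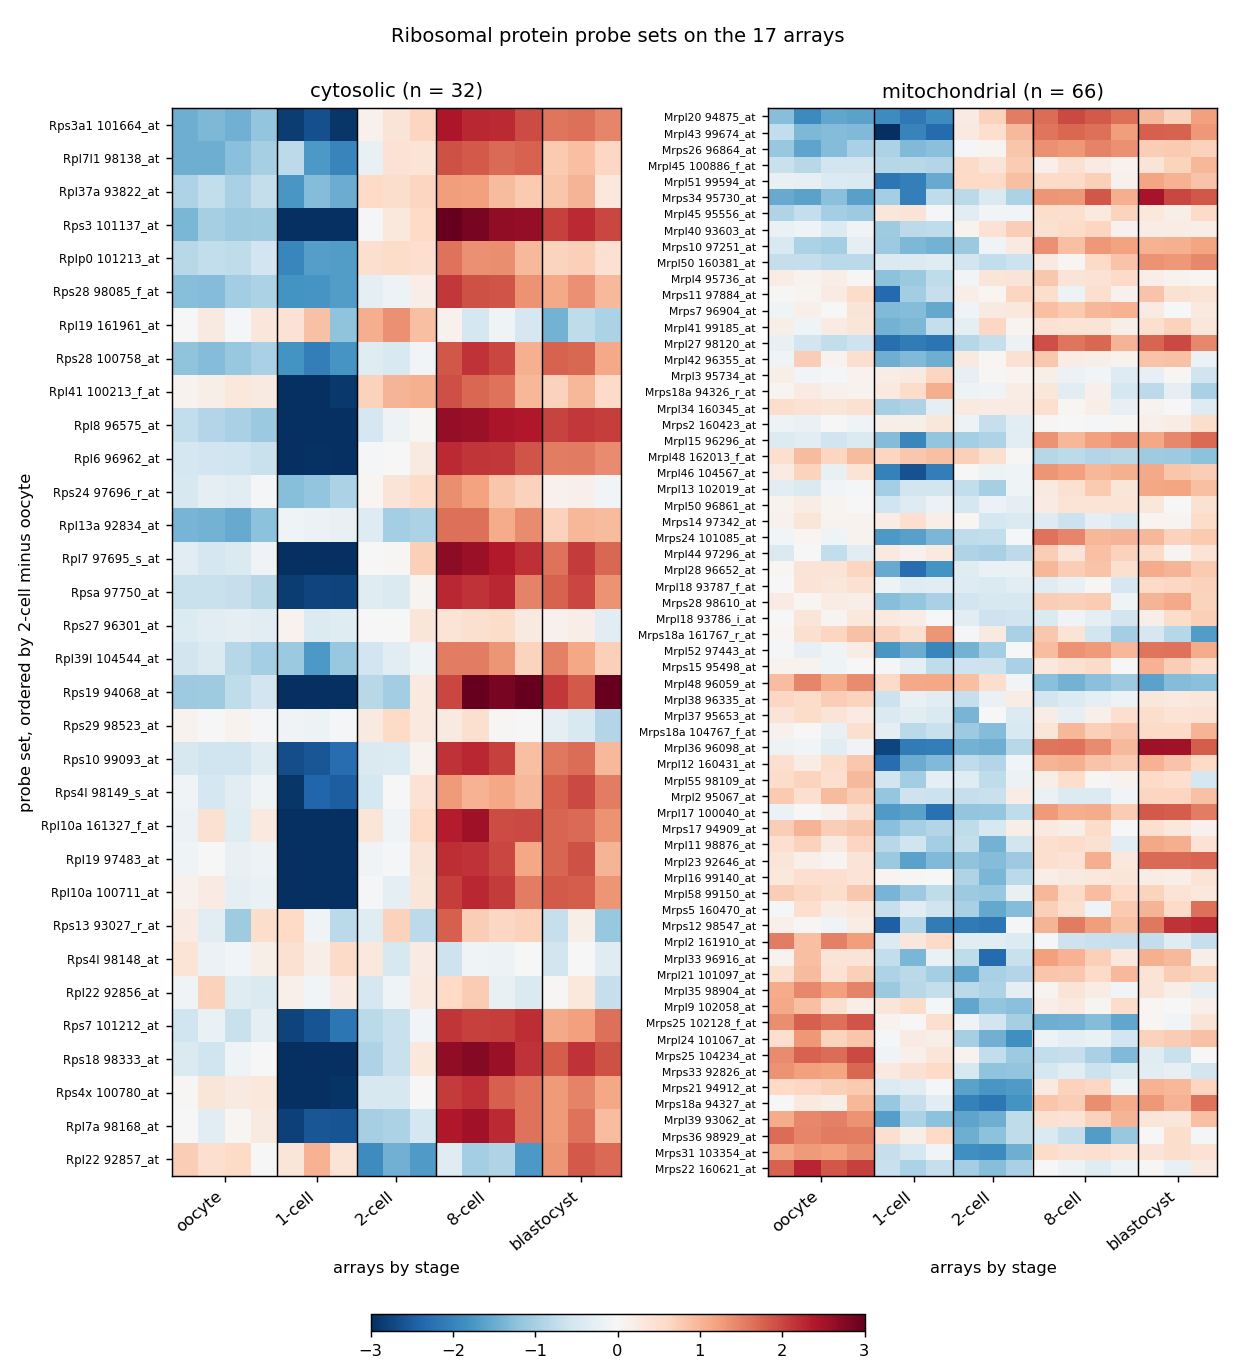
Log2(signal + 11) minus its mean over the 5 stages (colour, from -3 in blue to 3 in red) for 32 cytosolic (left) and 66 mitochondrial (right) probe sets on the 17 arrays (columns, by stage), ordered by 2-cell minus oocyte. Most cytosolic rows are dark blue in 1-cell and red in 8-cell embryos, and the lower mitochondrial rows are red in the oocyte and blue in 2-cell embryos, as Mrps22 and Mrps31 are.

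For genes with several probe sets tested, the calls could be compared within the gene. Over the 4 consecutive comparisons, 5 cytosolic genes gave 20 such comparisons, of which 10 had the same call at all probe sets, 9 a call at some, and 1 opposite calls. The opposite calls were those of Rpl19 in 8-cell embryos: the brighter probe set read 6779, 6614, 5895 and 3264 and followed the set, and the dimmer one read 107, 63.6, 87.3 and 64.2 after 219, 268 and 189 in 2-cell embryos. In the mitochondrial set 7 genes gave 28 comparisons, 13 with the same call, 15 with a call at some probe sets and 0 with opposite calls. Mrps18a had 4 probe sets, of which the plain one and the one with the suffix _f rose in 8-cell embryos (3.01 and 1.67) and the pair with the suffix _r did not pass the test (-0.07 and 0.16). A suffix letter such as _r or _f marks a probe set whose design dropped a rule or shares probes with a gene family, and 7 of the 32 cytosolic and 8 of the 66 mitochondrial probe sets carry one.

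**Figure D5:**
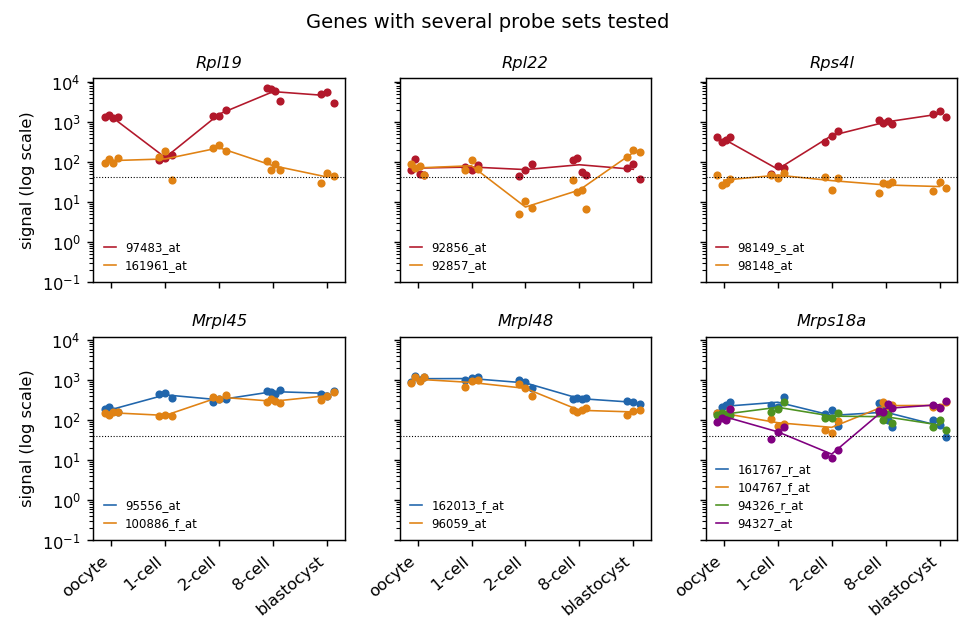
Signal on a log scale (y axis) by stage (x axis) for 6 genes with several probe sets tested, 1 colour for each probe set. Points are single arrays, lines join stage means, and the dotted line is the filter at 41.1. Both probe sets of Mrpl48 fall in 8-cell embryos, while those of Rpl19 part, the brighter rising and the dimmer falling.

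The 27 members that were not tested had no stage with a mean signal above 41.1. They included all probe sets of Rpl32, Rpl35a, Rpl38, Rpl39, Rps14, Rps15, Rps20 and Rps27l, and of Mrpl14, Mrpl49, Mrpl54 and Mrps16. The highest stage mean of such a probe set lay between 6.78 and 41.0 in the cytosolic and between 7.9 and 33.9 in the mitochondrial set. Of those tested, 23 cytosolic and 40 mitochondrial probe sets were above the filter on all 17 arrays, and the other 9 and 26 passed through some arrays alone, so that a difference between stages was in part a condition of their being tested. A further 39 cytosolic and 5 mitochondrial probe sets have annotations that list several symbols and were left out by the rule. Adding the 34 cytosolic ones that passed the filter raised the cytosolic counts to 51 lower and 4 higher in 1-cell, 52 higher and 4 lower in 2-cell, and 56 higher and 1 lower in 8-cell embryos.

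Paralogs and members with a ribosomal name but another role were few. Rpl39l, the paralog of Rpl39, went from 198, 214, 158 and 139 in the oocyte to 875, 869, 757 and 472 in 8-cell embryos, with a 1-cell change of -0.62 ± 0.23 beside that of Rpl6 (-2.51 ± 0.14). Mrpl58, which releases stalled peptides on the mitochondrial ribosome, fell by 1.75 ± 0.22 in 1-cell embryos and rose by 1.59 ± 0.22 in 8-cell embryos. Among mitochondrial ribosomal proteins whose symbols fall outside the rule, Dap3 (small subunit) fell in 2-cell embryos by 2.27 ± 0.23, a stage later than most members, fell again in 8-cell embryos (-0.53 ± 0.22, adjusted p = 0.0462) and rose in blastocysts by 1.74 ± 0.22. Ptcd3, also of the small subunit, rose in blastocysts alone (0.51 ± 0.17, adjusted p = 0.0175).

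Other parts of the translation machinery were counted in the same 4 steps, 1-cell, 2-cell, 8-cell and blastocyst, each against the stage before. Of 39 genes of ribosome assembly tested, 4 were higher and 18 lower, then 28 and 2, then 23 and 2, then 0 and 29. Nop16, a nucleolar assembly factor, rose in 2-cell embryos from a mean signal of 20.9 to 1110.2 (5.16 ± 0.22), and Ddx21, a nucleolar helicase, in 8-cell embryos from 52.5 to 1047 (4.05 ± 0.18). Rises thus outnumbered falls in 2-cell and 8-cell embryos, as in the cytosolic set. Of 25 genes of RNA polymerases I and III, 3 were higher and 12 lower, then 19 and 1, 9 and 8, and 2 and 16, with Taf1d, a polymerase I factor, rising by 5.02 ± 0.29 in 2-cell embryos.

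Of 29 cytosolic initiation factors, 7 were higher and 10 lower in 1-cell embryos, then 11 and 5, 21 and 1, and 3 and 12. Eif3m, of the complex that loads the small subunit onto mRNA, fell by 3.93 ± 0.22 in 1-cell embryos, and Eif3d, of the same complex, rose by 3.13 ± 0.20 in 8-cell embryos. Of 15 elongation, termination and nascent-chain factors, 1 was higher and 8 lower, then 7 and 2, 8 and 2, and 1 and 8. Of 12 genes of mitochondrial translation and gene expression, 3 were higher and 4 lower, then 4 and 4, 6 and 3, and 5 and 2. These 12 were the ones tested of 36 listed. Tufm, the mitochondrial elongation factor Tu, rose in 8-cell embryos by 2.53 ± 0.31, while Gfm1, the mitochondrial elongation factor G, rose in 1-cell embryos (1.31 ± 0.18) and fell in 2-cell embryos (-2.17 ± 0.19). The largest changes of this list in 1-cell and 8-cell embryos were falls, of Slirp (-3.43 ± 0.27) and of Nsun4 (-4.53 ± 0.27). Over all probe sets 37.1%, 47.2%, 54.1% and 42.5% were called in these steps.

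The arrays were alike within a stage: correlations across probe sets lay between 0.935 and 0.979 within stages and did not pass 0.891 between them. Marker lists were read beside the results. Oocyte markers (6 of 8 on the array) summed to 26075 to 27451 in oocytes and to 187 to 254 in blastocysts, and blastocyst markers (10 of 10) to 13517 to 16003 in blastocysts and at most 6598 elsewhere. Not all blastocyst markers were highest in blastocysts. Lamb1 had a mean signal of 3516 in 1-cell embryos, where the 6598 was reached, and of 409 in blastocysts. Tfap2c and Gata6 had means of 2023 and 431 in 8-cell embryos and of 1320 and 223 in blastocysts. Cdx2 did not pass a mean of 8.55 in any stage. Summed signals of cumulus and granulosa markers (9 of 12) were 102 to 338 over all arrays, those of blood (6 of 7) 105 to 359 and of sperm (7 of 7) 238 to 916. Oviduct and uterus markers (8 of 8) summed to 1451 to 2115 in 2-cell embryos and 552 to 7700 in 8-cell embryos. Ovgp1, an oviduct secretory protein, read 1272, 715 and 688 on the 2-cell arrays. Its means were 33.9 in oocytes, 44.6 in 1-cell embryos and 38.8 in blastocysts. All 2-cell arrays carry this signal, so leaving out 1 array does not remove it there. In 8-cell embryos array 8-cell 2 stood apart with Ovgp1 at 6212 against 43.1 to 114 on the other 3. The part of RNA from such cells was not tested, and without array 8-cell 2 the 8-cell counts were 24 higher and 1 lower cytosolic and 41 higher and 3 lower mitochondrial probe sets, and the blastocyst counts 2 higher and 15 lower, and 16 higher and 5 lower.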

How the data were processed

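The series held 1 array for each of 17 samples of 5 stages. The authors deposited 1 signal intensity per probe set on a linear scale, for 12488 probe sets; the software behind the values was not given in the sources used here. The mean of the middle 96% of values on an array lay between 150.097 and 150.133 and array medians between 34.05 and 49.15, so no scaling was added. The number of arrays limits the precision.

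After 66 control probe sets were left out, log2(signal + 11) of the 8067 probe sets above 41.1 on at least 3 arrays was fitted with 1 mean for each stage (limma 3.58.1 in R 4.3.3, with an intensity trend and 12 residual degrees of freedom, all 17 arrays together). Within each of 6 comparisons the two-sided p-values were corrected over all probe sets (Benjamini-Hochberg), with 0.05 as the threshold for a call. The fit was tested on simulated data.

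The members, lists and tests were chosen with earlier results of these data known. By the rule for naming, any member could be named, with most detail for the 3 largest called rises and falls of each set in each consecutive comparison, members called against their set, genes with several probe sets, paralogs and members that are not structural, and up to 3 genes of each pathway list per comparison. The motif searches used the RefSeq promoter table of GRCm38.p6. Alternatives were quantile normalization, median centring, spike scaling, offsets of 1 and 41, no filter, a stricter filter (152.5), no intensity trend, array weights, a replicate block, only the stages compared, plain probe sets only, 1 probe set a gene, each array left out, and, chosen after seeing the data, probe sets with several symbols.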

Additional observations from a re-analysis of the deposited data

Results flagged for a closer look

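Of 70 groups of 4 arrays examined for the named members, 2 held an array whose gap to its nearest neighbour took up most of the group's range; chance gives about 1 in 20 groups. Mrpl43 read 103 on oocyte array 1 and 64.4 to 67 on the other 3, a gap of 0.919 of the range. Rps13 read 174 on 8-cell array 1 and 71.3 to 78.7 on the other 3, a gap of 0.894 of the range.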

How the results depend on the processing

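Of 168 counts of called members recomputed under 14 alternatives (12 counts), 154 kept the direction of the balance of calls and stayed within 1.5 times. The mitochondrial count in 2-cell against 1-cell embryos turned from 24 higher and 16 lower to 20 and 22 (42 called) with quantile normalization and to 18 and 24 (42 called) with median centring. Over all probe sets the count turned too, from 2096 higher and 1714 lower to 1825 and 2130 and to 1614 and 2434. Spike scaling turned the cytosolic count in blastocysts against 8-cell embryos to 11 called, all higher, and that in 2-cell embryos against oocytes to 11 called, 9 of them lower. It also left 29 mitochondrial calls in 8-cell against 2-cell embryos and raised those in blastocysts against 8-cell embryos to 60. Over all probe sets, spike scaling gave 4720 higher and 189 lower in blastocysts against 8-cell embryos. In 2-cell embryos against oocytes it gave 776 and 3879. The cytosolic blastocyst count of 19 was 7 with quantile normalization and 12 with plain probe sets only. Adding probe sets of several symbols gave 55, 56, 57, 33, 32 and 57 cytosolic calls in the 6 comparisons. Why these counts moved was not tested, beyond the larger number tested in the last.

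With each array left out, the cytosolic counts ranged over 22 to 24 in 1-cell minus oocyte, 26 to 28 in 2-cell minus 1-cell, 24 to 28 in 8-cell minus 2-cell, 17 to 24 in blastocyst minus 8-cell, 16 to 20 in 2-cell minus oocyte and 26 to 27 in blastocyst minus oocyte. The mitochondrial counts ranged over 45 to 49, 33 to 42, 43 to 47, 16 to 26, 43 to 48 and 38 to 45.

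The difference of the cytosolic and mitochondrial medians in 1-cell minus oocyte, -0.59, was 0.032 with spike scaling, -0.71 with an offset at the median, 0.64 with no filter, -0.94 with the stricter filter, -0.24 with plain probe sets, -0.87 with 1 probe set a gene, -0.85 with several symbols and -0.65 to -0.46 with arrays left out. In 2-cell minus 1-cell, 2.11 became 2.35 with quantile normalization, 1.90 with spike scaling, 1.98 with the median offset, 0.92 with no filter, 2.46 with the stricter one, 1.92 with plain probe sets and 2.30 with several symbols. In 8-cell minus 2-cell, 0.90 became 0.25 with quantile normalization and -0.062 with no filter, and in blastocyst minus 8-cell, -0.74 became -0.20 with quantile normalization. In 2-cell minus oocyte, 1.18 became 1.01 with the median offset, 0.86 with no filter, 1.36 with the stricter one, 1.03 with several symbols and 1.05 to 1.31 with arrays left out. In blastocyst minus oocyte, 1.43 became 0.29 with no filter and 1.63 with the stricter one. The cause was not tested.

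Of 1210 values for 41 named changes, 1196 kept their direction and call, 8 lost the call and 6 changed sign. The 6, all with spike scaling, were Mrpl44 in 1-cell embryos (-0.44) and, in blastocysts, Rpl7l1 (0.10), Rps24 (0.21), Mrpl20 (0.30), Mrps7 (0.38) and Mrps26 (0.49).

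The replicate numbers were not used as pairs. Deviations of same-numbered arrays of different stages correlated at -0.08 to 0.13 over 31 pairs, 2 of them over 0.1. Those of differently numbered arrays correlated at -0.27 to 0.36 over 84 pairs, 3 of them over 0.1. The highest was that of 8-cell 4 with blastocyst 3. With 3 or 4 arrays a stage, such correlations cannot exclude a pairing. With the number as a block, the cytosolic counts were 24, 27, 28, 19, 17 and 26 and the mitochondrial ones 45, 39, 44, 19, 46 and 43. Signals near the filter, folds against stages below it and probe sets with shared probes limit what single members show.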
